A study of Mus musculus with 6 samples.

Results

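The nuclear-encoded subunits of respiratory complexes II to V were described here as 50 gene identifiers of 56941 in a count table of mouse lung endothelial isolates. They were chosen by symbol: Sdha to Sdhd, Cyc1, and symbols starting with Uqcr, with Cox and a digit of 4 to 8, or with Atp5, without pseudogene symbols ending in -ps. Of these, 4 belong to complex II, 9 to complex III, 19 to complex IV and 18 to complex V. A total of 45 passed the filter on low counts. Of the 5 others, the testis isoforms Cox7b2 and Cox8c and a second Atp5o identifier were all at 0 counts. Cox6c2 had 2 counts in 1 FL library and none in the other libraries, and the muscle isoform Cox8b had 2 to 19 counts per library. RNA was sequenced from primary cells isolated with magnetic beads from mouse lungs, cleared of dead cells and kept in endothelial medium with serum. The sample titles label them PAECs, a short form that usually stands for pulmonary artery endothelial cells and is not spelled out in the titles. There were 3 libraries from mice with an endothelial knockout of Fundc1 (EC-KO, genotype FUNDC1-KO) and 3 from mice with the floxed gene (FL, genotype FUNDC1-FLOX). The driver of the knockout, the age and sex of the mice, the antibody on the beads, and whether libraries came from separate animals were not stated, so a p-value here measures spread between libraries alone, and that spread may be technical.

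Electrons from succinate enter the respiratory chain at complex II, succinate dehydrogenase, which is also an enzyme of the tricarboxylic acid cycle and the one complex of the chain with no subunit from the mitochondrial genome. Complex III passes electrons from coenzyme Q to cytochrome c, complex IV passes them to oxygen, and complex V, the ATP synthase, uses the proton gradient to make ATP. Endothelial cells are known to draw much of their ATP from glycolysis, and FUNDC1, the deleted gene's product, is a receptor for the removal of mitochondria by autophagy.

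Fundc1 transcripts averaged 15.02 ± 2.78 CPM in EC-KO and 29.2 ± 3.67 CPM in FL (SD, n = 3 each; CPM are counts scaled by library size with TMM factors), which is -0.96 ± 0.19 on the log2 scale with its SE (adjusted p = 0.00796 by edgeR's quasi-likelihood test). Total gene counts were 29.7 to 33.5 M per EC-KO library and 26.7 to 34.3 M per FL library, and the members took 0.220% to 0.251% of them in EC-KO and 0.221% to 0.239% in FL. The isolates differed in marker genes of cell types, where 13.5% of all tested genes were called higher and 13.5% lower. Of 16 pan-endothelial markers 10 were called lower in EC-KO and 0 higher (median log2 fold change -1.08), of 11 epithelial markers 10 were called higher (2.43), of 9 fibroblast markers 5 higher (1.18) and of 8 macrophage and monocyte markers 6 lower (-1.83). Summed pan-endothelial levels were 3709 to 7479 CPM in EC-KO and 8796 to 12122 CPM in FL, and summed epithelial levels were 11076 to 16486 CPM in EC-KO and 1793 to 4305 CPM in FL. In such bulk samples fewer cells of a type and less RNA per cell cannot be told apart, and the part of the cell mix in the results below was not tested.

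Across the 45 tested members, levels in EC-KO and FL lay close together, and 4 members passed the test: Uqcrh and Cox6a2 rose, and Sdha and Atp5c1 fell. That is 8.89% of the members, where 27.1% of all 18562 tested genes were called (edgeR's quasi-likelihood test, adjusted p under 0.05). By direction, 2 members were higher, beside 13.5% of all genes, and 2 were lower, beside 13.5%. The median log2 fold change (EC-KO over FL) was 0.09 over the members and 0.03 over all genes, and 68.9% of members against 32.1% of all genes lay within 0.3 of 0. The groups did not overlap in 9 of 45 members (20%), beside 45.4% of all genes. The count of called members was 7 without EC-KO 2, where Sdhc (-0.64), Cox4i2 (-0.99) and Atp5l (0.45) joined the 4, 3 without EC-KO 3, where Cox6b2 was called (1.25) and Sdha and Atp5c1 were not, 2 without FL 2, 1 without FL 3 and 1 without EC-KO 1. The numbers of all genes called were 6740 without EC-KO 2, 3422 without EC-KO 3, 2626 without FL 2, 2547 without FL 3 and 2832 without EC-KO 1. Leaving out FL 1 together with EC-KO 2, which was chosen after seeing the data, also gave 7 members, beside 7554 genes called.

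**Figure D1:**
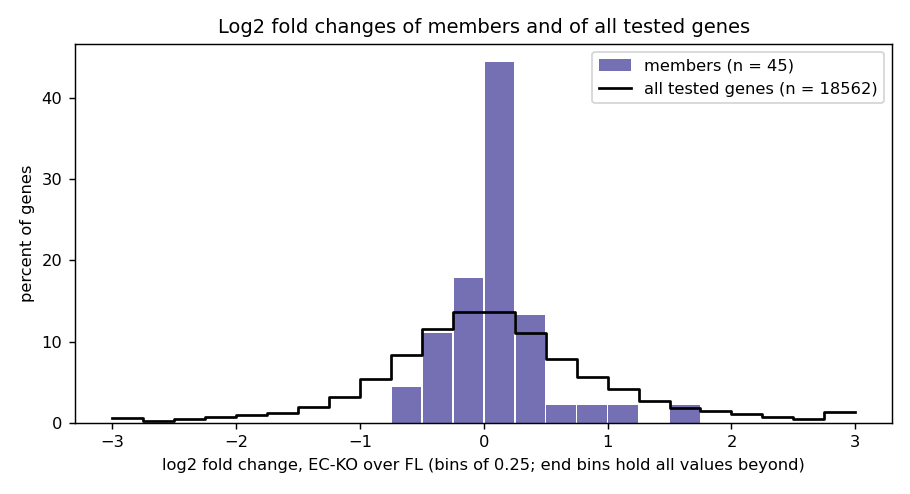
Percent of genes (vertical axis) by log2 fold change of EC-KO over FL in bins of 0.25 (horizontal axis), for the 45 tested members (bars) and all 18562 tested genes (line), with the end bins holding all values beyond. In the bin of 0 to 0.25 lie 44.4% of the members and 13.6% of all genes, and Cox6a2 is the member farthest to the right.

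A p that misses the threshold does not show that a level did not differ, so the interval of each fold change between these isolates is given. Like the p-value, it rests on the spread between libraries alone, which may be technical. It is not adjusted for the cell mix. The 95% interval lay within a 2-fold change in either direction for 39 of 45 members, and for 37 of the 41 that were not called. The exceptions were Sdha and Cox6a2, which were called, and the low-level members Cox4i2, Cox6b2, Cox7a1 and Atp5s, which were not. The median standard error of a log2 fold change was 0.18 over the members and 0.26 over all tested genes.

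**Figure D2:**
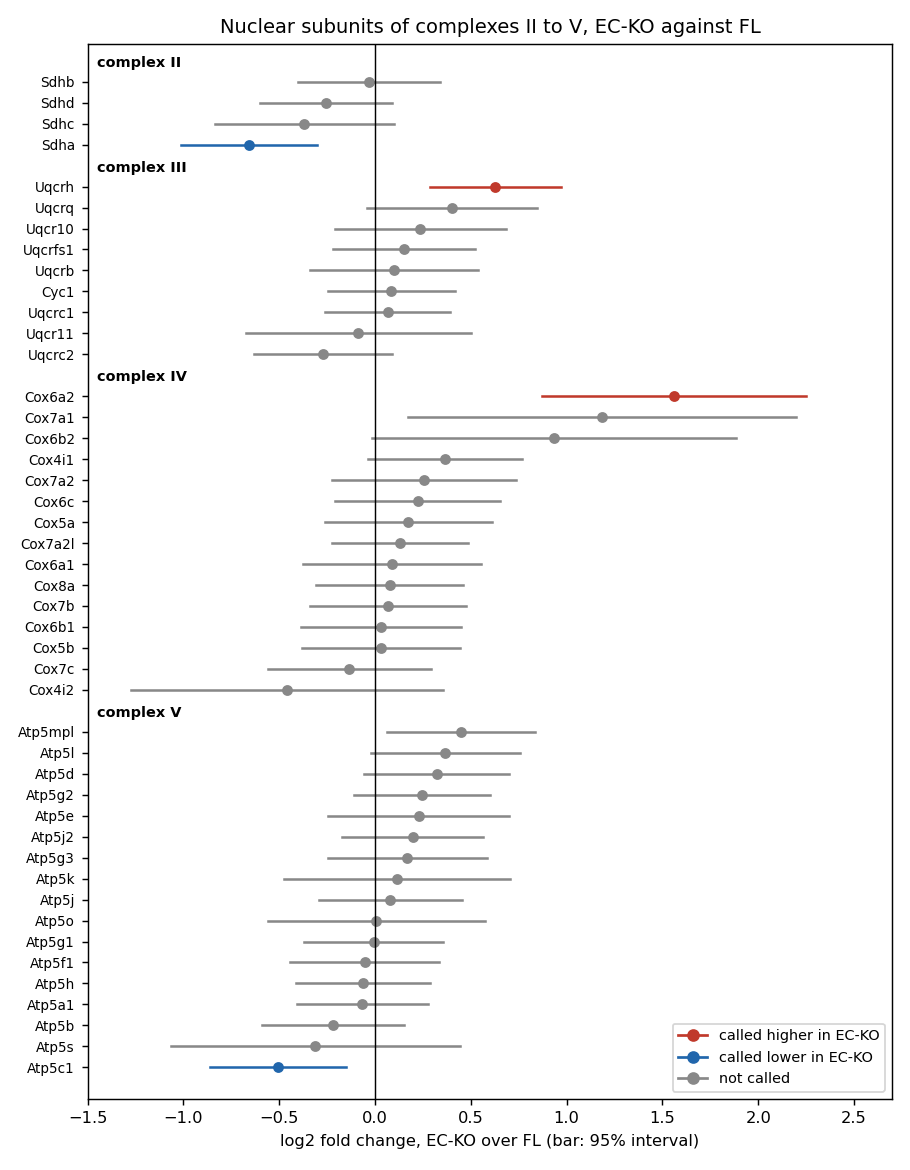
Log2 fold change of EC-KO over FL (horizontal axis, points) with its 95% interval (bars) for each of the 45 tested members, grouped by complex. The 2 called higher (Uqcrh, Cox6a2) and the 2 called lower (Sdha, Atp5c1) are coloured, and 10 of the 15 tested complex IV members lie within 0.3 of 0.

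The libraries of 1 group did not hold their members at 1 level. In EC-KO 3, 38 of 45 members had the lowest level of the 3 EC-KO libraries, and in EC-KO 2, 26 members had the highest. Median levels relative to the FL mean were 0.13, 0.24 and -0.15 on the log2 scale in EC-KO 1, 2 and 3 and 0.05, -0.04 and -0.0036 in FL 1, 2 and 3. EC-KO 3 had 14.4% of alignments outside annotated features, against 10.5% and 10.8% in EC-KO 1 and 2 and 9.10% to 10.8% in FL, and the pan-endothelial mean relative to FL was -1.48, -0.50 and -1.47 in EC-KO 1, 2 and 3. The part of either in the members' levels was not tested.

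**Figure D3:**
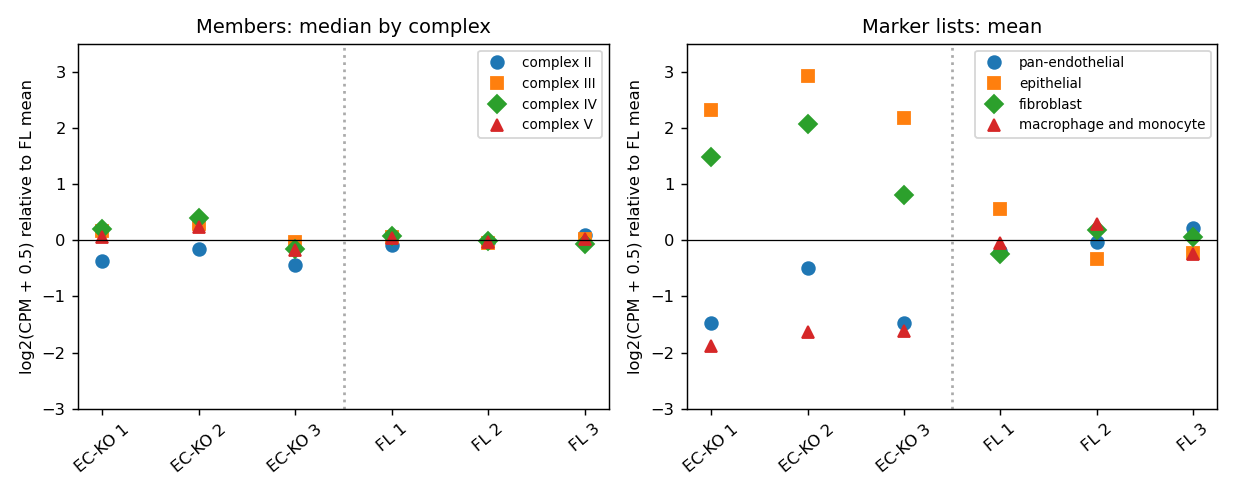
Levels as log2(CPM + 0.5) relative to the FL mean (vertical axes, same range) in each library (horizontal axes), as the median over the tested members of complexes II to V (left) and the mean over 4 marker lists (right). Complex medians stay between -0.44 and 0.40, whereas EC-KO epithelial means reach 2.18 to 2.92 and macrophage and monocyte means -1.88 to -1.62.

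Nuclear genes of the respiratory chain are known for promoters with sites for NRF1 (nuclear respiratory factor 1) and for ETS factors such as GABP, and 250 bases before the start were searched for 5 motifs in the 34 of 49 member symbols with an entry in RefSeq's windows (GRCm38.p6). The motifs were GCGCA, any base, then GCGC for NRF1, CCGGAAG for ETS factors, AANATGGC for YY1, AAGGTCA for oestrogen-related receptors and GGGCGG for SP1, each on both strands, and no 2 different motifs overlapped in the members' windows. NRF1 letters were in 7 of 34 members (20.6%), in 18.2% of 33 complex I subunits and in 4.23% of 27025 genes. ETS letters were in 9 members (26.5%), in 9.09% of complex I subunits and in 7.83% of all genes. The YY1, oestrogen-related receptor and SP1 letters were in 2.94%, 5.88% and 29.4% of members, in 15.2%, 9.09% and 42.4% of complex I subunits and in 4.49%, 4.7% and 35.4% of all genes. A match describes these letters only and shows no binding.

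The windows of the 3 called members with an entry are shown because they differ in direction and in motif, and that of Cox6a1 because it is the common partner of Cox6a2 and was not called. Each is the 250 bases before the start on the minus strand, at chr4:116075071-116075320, chr13:74350241-74350490, chr2:10080433-10080682 and chr5:115348959-115349208 of GRCm38.p6, 5′ to 3′, with motif matches in capitals.
Uqcrh: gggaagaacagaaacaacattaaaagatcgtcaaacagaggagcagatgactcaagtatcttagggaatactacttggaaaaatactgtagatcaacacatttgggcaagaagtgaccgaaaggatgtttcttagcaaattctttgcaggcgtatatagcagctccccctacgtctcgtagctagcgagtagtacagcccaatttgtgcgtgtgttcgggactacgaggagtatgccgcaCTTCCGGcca
Sdha: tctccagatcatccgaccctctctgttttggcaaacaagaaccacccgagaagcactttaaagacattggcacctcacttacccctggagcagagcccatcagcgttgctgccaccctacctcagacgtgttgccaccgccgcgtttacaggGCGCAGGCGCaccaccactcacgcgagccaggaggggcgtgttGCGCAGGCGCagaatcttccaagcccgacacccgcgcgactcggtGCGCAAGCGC
Atp5c1: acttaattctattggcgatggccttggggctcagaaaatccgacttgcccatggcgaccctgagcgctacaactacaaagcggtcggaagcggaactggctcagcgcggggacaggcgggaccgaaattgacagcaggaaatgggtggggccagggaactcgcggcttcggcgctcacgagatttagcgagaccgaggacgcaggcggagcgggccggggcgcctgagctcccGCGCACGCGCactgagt
Cox6a1: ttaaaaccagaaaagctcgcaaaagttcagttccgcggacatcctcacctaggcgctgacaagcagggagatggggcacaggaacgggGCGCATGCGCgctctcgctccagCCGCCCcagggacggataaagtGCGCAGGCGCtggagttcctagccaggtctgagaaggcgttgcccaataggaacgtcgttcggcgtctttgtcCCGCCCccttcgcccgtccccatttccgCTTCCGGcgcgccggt
Uqcrh, which rose, has ETS letters on the opposite strand, printed as CTTCCGG, 10 to 4 bases before the start and no NRF1 letters. Sdha, which fell, has NRF1 letters at 3 places, the nearest 10 to 1 bases before the start. Atp5c1, which fell, has NRF1 letters 17 to 8 bases before 1 of its 2 starts and no match before the other. Cox6a1, at 34.5, 48.2 and 28.3 CPM in EC-KO and 35.3, 34.6 and 34.3 CPM in FL, has NRF1 letters at 2 places, SP1 letters at 2 and ETS letters at 1. NRF1 letters were also found in Atp5g2, Atp5h, Atp5k and Sdhd, and ETS letters in Atp5e, Atp5h, Atp5j, Atp5l, Cox6b1, Sdhd and Uqcr11, none of which were called.

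In complex II all 4 subunits had a fold change below 0 (median -0.31), and 1 of them passed the test. Sdha, the flavoprotein that oxidises succinate (ENSMUSG00000021577, chromosome 13, 74470373 to 74498399, minus strand; coordinates as deposited, build not resolved), had 127, 145 and 115 CPM in EC-KO 1, 2 and 3, against 202, 194 and 215 CPM in FL 1, 2 and 3. Every EC-KO library lay below every FL library. The means were 129 ± 14.9 CPM in EC-KO and 204 ± 10.6 CPM in FL (SD, n = 3 each), and Sdha fell by 0.66 ± 0.16 on the log2 scale (SE, adjusted p = 0.0157 in edgeR). The call was lost without EC-KO 1, EC-KO 3 or FL 3 (adjusted p = 0.0584, 0.0597 and 0.0632), and the adjusted p was 0.000689 to 0.0632 over all alternatives run.

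The other subunits of complex II did not pass the test. Sdhb, the iron-sulphur subunit that takes electrons from Sdha, had 33.5, 36.8 and 28.2 CPM in EC-KO and 32.8, 31.6 and 36.2 CPM in FL, so the groups overlapped (log2 fold change -0.031, 95% interval -0.40 to 0.34). The membrane anchors were at -0.37 (Sdhc, adjusted p = 0.212) and -0.25 (Sdhd, adjusted p = 0.242). Sdhc had 31.8, 48.0 and 30.6 CPM in EC-KO and 41.6, 50.7 and 50.2 CPM in FL, and Sdhd had 41.1, 36.8 and 38.8 CPM in EC-KO and 41.7, 46.2 and 51.3 CPM in FL. The groups overlapped in Sdhc through EC-KO 2 and did not overlap in Sdhd. The ratio of Sdha to Sdhb within a library, which does not depend on scaling, was 3.804, 3.93 and 4.08 in EC-KO and 6.15, 6.14 and 5.93 in FL. The ranges did not overlap, and an exact two-sided permutation test gave 0.10, the smallest p that 3 against 3 libraries allow (0.10 after adjustment over the 4 ratios tested, which were chosen after the values were seen). The assembly factors of complex II, Sdhaf1 to Sdhaf4, gave 0 calls in either direction (median -0.47). Sdhaf1 had 13.4 CPM in EC-KO and 9.01 CPM in FL (0.57, adjusted p = 0.0854 in edgeR). Below 0 were Sdhaf2 (-0.40), Sdhaf3 (-0.53) and Sdhaf4 (-0.82). Of 13 other enzymes of the tricarboxylic acid cycle, 1 fell and 0 rose (median -0.16), beside 13.5% of all genes called in each direction. The 1 was Ogdh, a subunit of the oxoglutarate dehydrogenase complex, with 147, 213 and 153 CPM in EC-KO and 243, 269 and 254 CPM in FL (-0.58, adjusted p = 0.0463 in edgeR), and it was not called without EC-KO 1, EC-KO 3, FL 1, FL 2 or FL 3 (adjusted p = 0.156, 0.140, 0.0700, 0.139 and 0.115).

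**Figure D4:**
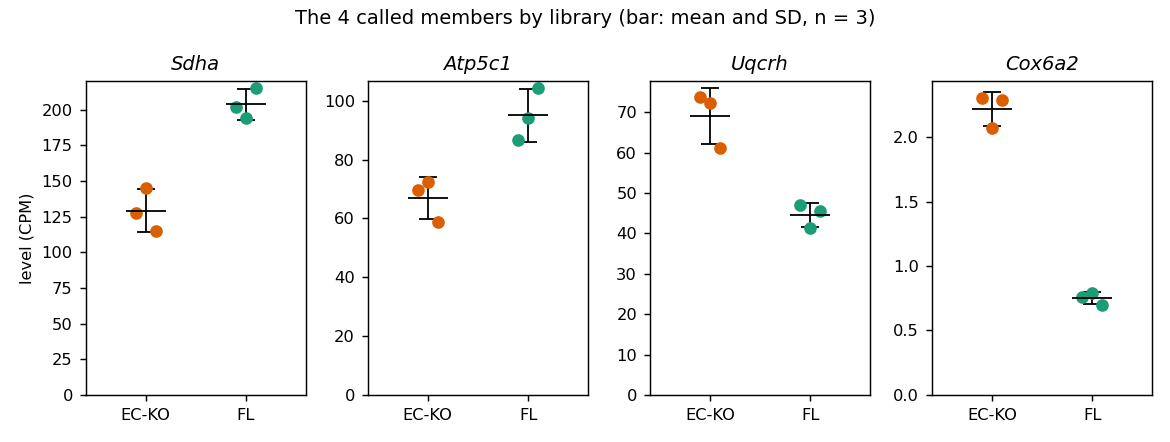
Level in CPM (vertical axes, each from 0) of the 4 called members in the EC-KO and FL libraries (points), with the mean and SD (bars, n = 3). The groups do not overlap in any panel, with EC-KO below FL for Sdha and Atp5c1 and above FL for Uqcrh and Cox6a2.

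Among the 9 subunits of complex III, Uqcrh rose and 0 fell, with a median of 0.10. Uqcrh, the acidic hinge protein near cytochrome c1 (ENSMUSG00000063882, chromosome 4, 115924162 to 115932268, minus strand, build not resolved), had 73.7, 72.4 and 61.0 CPM in EC-KO 1, 2 and 3, against 47.1, 41.4 and 45.6 CPM in FL 1, 2 and 3. Every EC-KO library lay above every FL library. The means were 69.0 ± 6.96 CPM in EC-KO and 44.7 ± 2.96 CPM in FL (SD, n = 3 each), and the log2 fold change was 0.63 ± 0.15 (SE, adjusted p = 0.0164 in edgeR). It was not called without EC-KO 1, FL 2 or FL 3 (adjusted p = 0.0652, 0.0854 and 0.0729), and the adjusted p was 0.00168 to 0.0854 over all alternatives run. Alignments to several places were set aside in the deposited counts, and Uqcrh has 2 annotated pseudogenes, so its level is uncertain.

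The core and catalytic subunits of complex III gave no call. Uqcrc1, a core protein, had 58.3 to 65.9 CPM in EC-KO and 54.1 to 61.1 CPM in FL (0.065). Uqcrc2, the other core protein, had 67.3, 58.0 and 61.8 CPM in EC-KO and 64.9, 75.0 and 85.6 CPM in FL and the lowest fold change of complex III (-0.27, adjusted p = 0.237), with overlapping groups. Cyc1, cytochrome c1, had 30.7 to 32.7 CPM in EC-KO and 28.5 to 31.5 CPM in FL (0.085), and Uqcrfs1, the Rieske iron-sulphur protein, was at 0.15. The small subunits Uqcrb, Uqcrq, Uqcr10 and Uqcr11 were between -0.086 (Uqcr11) and 0.40 (Uqcrq, adjusted p = 0.155), and their groups overlapped. The ratio of Uqcrh to Uqcrc1 was 1.12, 1.22 and 1.05 in EC-KO and 0.784, 0.764 and 0.746 in FL, without overlap (exact permutation test, two-sided, p = 0.10, the smallest possible). Of 6 assembly factors of complex III, 0 rose and 0 fell (median 0.01), with Uqcc3, the most abundant per length, at 0.013 (adjusted p = 0.977). Mt-Cytb, the mitochondrially encoded cytochrome b, had 7039, 8243 and 4902 CPM in EC-KO and 5583, 4370 and 4016 CPM in FL (0.53, adjusted p = 0.136), so the groups overlapped.

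Complex IV had 15 tested members, of which Cox6a2 rose and 0 fell (median 0.13). None of the common subunits passed the test. Cox4i1, the ubiquitous form of subunit 4, which is the largest nuclear-encoded subunit, had 110, 121 and 83.4 CPM in EC-KO and 88.7, 75.0 and 80.4 CPM in FL (0.36 ± 0.18 SE, adjusted p = 0.157). Its groups overlapped through EC-KO 3. Cox5a and Cox5b were at 0.17 and 0.030, Cox6a1, Cox6b1 and Cox6c at 0.090, 0.033 and 0.22, Cox7a2, Cox7b and Cox7c at 0.26, 0.068 and -0.13, and Cox8a at 0.077 (log2 fold changes, none called, all 9 overlapping between groups). Cox7a2l, a factor that joins complexes III and IV into supercomplexes, had 132, 118 and 104 CPM in EC-KO and 113, 97.8 and 113 CPM in FL, with overlapping groups (0.13, adjusted p = 0.570). Per kilobase of annotated exon it was the most abundant complex IV member, with 79.9 CPM per kb in EC-KO and 73.0 in FL.

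Several places of complex IV can be filled by a second, tissue-restricted isoform, and 3 of these isoforms, Cox6a2, Cox7a1 and Cox6b2, had the highest fold changes of all tested members. Cox6a2, the heart and skeletal muscle form of subunit 6a (ENSMUSG00000030785, chromosome 7, 127804607 to 127805559, minus strand, build not resolved), had 2.31, 2.07 and 2.29 CPM in EC-KO 1, 2 and 3, against 0.757, 0.794 and 0.700 CPM in FL 1, 2 and 3, from 66 to 80 counts per EC-KO library and 20 to 26 per FL library. Every EC-KO library lay more than 2-fold above every FL library. The log2 fold change was 1.56 ± 0.30 (SE, adjusted p = 0.00704 in edgeR), and Cox6a2 was called under all 16 alternatives run (adjusted p = 0.000191 to 0.0376). Cox7a1, the muscle form of subunit 7a, had 0.577, 1.00 and 1.02 CPM in EC-KO and 0.341, 0.458 and 0.335 CPM in FL, without overlap but from 9 to 33 counts per library (1.18 ± 0.45 SE, adjusted p = 0.0781). Cox6b2, known from testis, had 4.30, 6.42 and 2.10 CPM in EC-KO and 2.88, 2.32 and 1.52 CPM in FL, where EC-KO 3 lay within the FL range (0.94, adjusted p = 0.128). Cox8b, the muscle form of subunit 8, had 0.231, 0.501 and 0.587 CPM in EC-KO and 0.227, 0.183 and 0.0608 CPM in FL and was too low to be tested.

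Cox4i2, the isoform of subunit 4 enriched in lung and known for its part in oxygen sensing, had a fold change below 0, unlike Cox6a2, Cox7a1 and Cox6b2. It had 4.01, 7.33 and 2.502 CPM in EC-KO and 5.72, 6.29 and 7.03 CPM in FL. The groups overlapped only through EC-KO 2, which had the highest level of all 6 libraries (-0.46 ± 0.36 SE, adjusted p = 0.369). Without EC-KO 2 it was called lower (-0.99, adjusted p = 0.0220). Cox4i2 is also known as a pericyte gene. Of 14 smooth muscle and pericyte markers, a list that mixes both cell types, 8 fell and 1, Abcc9, rose (median -0.97). Beside this, 13.5% of all genes were called in each direction. Those that fell were Acta2, Myh11, Cnn1, Lmod1, Cspg4, Pdgfrb, Rgs5 and Notch3. Not called were Tagln, Des, Kcnj8 (-0.16), Higd1b (-0.96) and Mcam (-0.059). No marker was at 0 in every library. The summed levels of the list were 631, 1113 and 765 CPM in EC-KO and 1023, 1177 and 1374 CPM in FL. Mcam had the highest level of the list in every library and averaged 452 CPM in EC-KO and 471 CPM in FL. EC-KO 2 was the highest EC-KO library there too, but that rank was not particular to this list. It was also the highest EC-KO library in summed pan-endothelial, fibroblast, epithelial, and macrophage and monocyte levels. By summed level it was not the highest for lymphocyte, erythroid and platelet, or striated muscle markers. These ranks depend on the measure. By the mean log2 level relative to FL, EC-KO 2 was the highest EC-KO library for striated muscle markers (0.65, 0.99 and 0.77 in EC-KO 1, 2 and 3). By that mean it lay just below EC-KO 3 for macrophage and monocyte markers (-1.636 against -1.621). For the muscle isoforms, 2 of 8 striated muscle markers rose and 0 fell (median 1.15), beside 13.5% of all genes called in each direction. They were Myh7 (2.65) and Tnni3 (1.73), and the summed level of the list was 74.4, 100.8 and 121 CPM in EC-KO and 68.6, 48.0 and 78.0 CPM in FL, with no marker at 0 in every library. The part of pericytes or muscle cells in these levels was not tested.

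Shares of the restricted isoform in its pair, from counts per kilobase, set the isoforms against their common partners within each library. Cox4i2 made up 6.71%, 10.7% and 5.57% of the Cox4i2 and Cox4i1 pair in EC-KO, against 11.3%, 14.2% and 14.7% in FL. Cox6a2 made up 6.46%, 4.24% and 7.71% of its pair with Cox6a1 in EC-KO, against 2.17%, 2.31% and 2.06% in FL. Cox7a1 made up 5.06%, 6.09% and 9.68% of its pair with Cox7a2 in EC-KO, against 3.44%, 4.69% and 2.93% in FL. In these 3 pairs the groups did not overlap. Of all single genes tested, 45.4% did not overlap either, and shares of other gene pairs were not computed. The share of Cox8b beside Cox8a was 1.07%, 2.02% and 3.24% in EC-KO and 1.07%, 0.891% and 0.327% in FL, where the groups overlapped. The exact two-sided permutation test gave 0.10 for the first 3 pairs, the smallest p possible with 3 against 3 libraries, and 0.20 for Cox8b (adjusted over the 4 pairs 0.133, 0.133, 0.133 and 0.20).

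**Figure D5:**
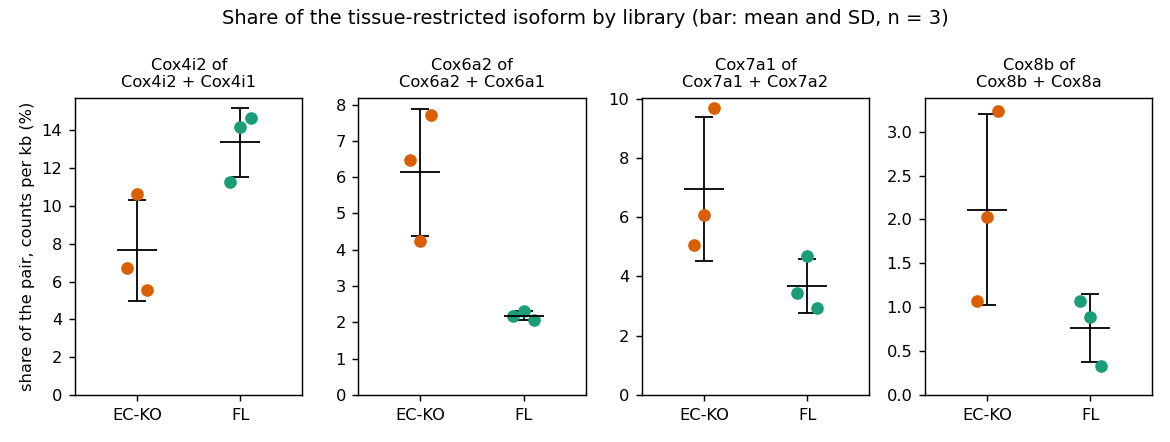
Share of the tissue-restricted isoform in its pair (vertical axes, percent of counts per kb, each from 0) in EC-KO and FL libraries (points), with the mean and SD (bars, n = 3). The Cox4i2 share averages 7.64% in EC-KO and 13.4% in FL, and the Cox6a2 share 6.14% in EC-KO and 2.18% in FL.

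A list of factors that assemble complex IV and bring it copper and haem gave 5 calls among 25 tested genes. Of these 2 rose and 3 fell (median 0.03), beside 13.5% of all genes called in each direction. The list also holds Ndufa4 (0.29), now counted as a complex IV subunit, and its relative Ndufa4l2 (-0.70), neither of them called. Cox20, which holds the newly made Cox2 protein, had 2.22, 2.41 and 2.13 CPM in EC-KO and 1.29, 0.824 and 0.669 CPM in FL (1.29, adjusted p = 0.0243 in edgeR). Coa7 rose too (0.89, adjusted p = 0.0249). Coa5 (-0.59), Cox15, an enzyme of haem A synthesis (-0.60), and Taco1, a translation activator for Cox1 (-0.95), fell (adjusted p = 0.0196, 0.0434 and 0.0450). For Coa5 the levels were 42.8, 40.04 and 40.4 CPM in EC-KO and 59.6, 68.6 and 56.8 CPM in FL, without overlap. Each of these 5 calls was lost without some single libraries. Cox20 was not called without EC-KO 1, EC-KO 3, FL 2 or FL 3 (adjusted p = 0.0722, 0.0565, 0.0866 and 0.103). Coa7 was not called without EC-KO 1, EC-KO 3, FL 1, FL 2 or FL 3 (adjusted p = 0.0902, 0.0908, 0.0684, 0.0681 and 0.10001). Coa5 was not called without EC-KO 1, EC-KO 3 or FL 2 (adjusted p = 0.0558, 0.0567 and 0.0948). Cox15 was lost without EC-KO 1, EC-KO 3, FL 2 or FL 3 (adjusted p = 0.136, 0.0549, 0.147 and 0.127), and also without scaling factors (0.0855) and without the filter on low counts (0.0521). Taco1 was lost without EC-KO 1, EC-KO 2, FL 1, FL 2 or FL 3 (adjusted p = 0.107, 0.0585, 0.0962, 0.0991 and 0.0933), and also without scaling factors (0.0802). The mitochondrially encoded mt-Co1 had 20251, 21706 and 13889 CPM in EC-KO and 18948, 14495 and 14709 CPM in FL (0.21, adjusted p = 0.535). All 6 mitochondrially encoded subunits of complexes III to V had a fold change above 0 (0.21 to 0.57). Of these, edgeR's quasi-likelihood test called 0, with 1 at an unadjusted p under 0.05. However, mt-Co2, mt-Co3, mt-Atp6 and mt-Atp8 averaged only 11.4, 11.4, 9.59 and 0.694 CPM in EC-KO. In FL they averaged 7.73, 8.99, 7.92 and 0.603 CPM, far below mt-Co1. Multi-mapping alignments had been set aside, so the levels and fold changes of these low genes are uncertain. The reason for the gap was not tested.

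Complex V had 17 tested members, of which Atp5c1 fell and 0 rose (median 0.08). Atp5c1, the gamma subunit that forms the turning central shaft (ENSMUSG00000025781, chromosome 2, 10060827 to 10085321, minus strand, build not resolved), had 69.5, 72.3 and 58.8 CPM in EC-KO 1, 2 and 3, against 86.6, 94.0 and 104 CPM in FL 1, 2 and 3. Every EC-KO library lay below every FL library. The means were 66.9 ± 7.12 CPM in EC-KO and 95.01 ± 8.93 CPM in FL (SD, n = 3 each), and Atp5c1 fell by 0.51 ± 0.16 on the log2 scale (SE, adjusted p = 0.0412 in edgeR). The call was close to the threshold. It was lost without EC-KO 1, EC-KO 3, FL 2 or FL 3 (adjusted p = 0.0969, 0.129, 0.113 and 0.135), without scaling factors (0.0658) and without the filter on low counts (0.0558), and the adjusted p was 0.00618 to 0.135 over all alternatives run.

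The alpha and beta subunits, which form the catalytic head, were the most abundant of all members per kilobase. Atp5a1 had 358, 346 and 327 CPM in EC-KO and 372, 339 and 368 CPM in FL, with overlapping groups (-0.065, 95% interval -0.41 to 0.28). Atp5b had 381, 417 and 328 CPM in EC-KO and 420, 431 and 461 CPM in FL, without overlap and without a call (-0.22 ± 0.16 SE, adjusted p = 0.344). The ratio of Atp5c1 to Atp5b was 0.182, 0.174 and 0.179 in EC-KO and 0.206, 0.218 and 0.226 in FL, without overlap (exact permutation test, two-sided, p = 0.10, the smallest possible). Atp5d and Atp5e, the delta and epsilon subunits of the central stalk, were at 0.32 and 0.23 and were not called.

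The membrane ring and the peripheral stalk of complex V gave no call. Atp5g1, Atp5g2 and Atp5g3, which encode the same mature c subunit of the ring, were at -0.0077, 0.24 and 0.17. Of the peripheral stalk, Atp5f1 (b), Atp5h (d) and Atp5j (coupling factor) were at -0.055, -0.061 and 0.080. Atp5o, which joins that stalk to the head, was at 0.0075, but 2 identifiers share exons under that symbol and ambiguous alignments were left unassigned, so its level of 5.29 CPM in EC-KO and 5.27 CPM in FL is uncertain. Of the small membrane subunits, Atp5mpl had 13.2, 12.7 and 12.0 CPM in EC-KO and 9.20, 9.40 and 9.10 CPM in FL, without overlap (0.45 ± 0.17 SE, adjusted p = 0.0789), and was called by DESeq2 (adjusted p = 0.0493) and without scaling factors (0.0484). Atp5l (0.37, adjusted p = 0.142) did not overlap either, and Atp5j2 (0.20) and Atp5k (0.11) did. Atp5s, a coupling factor that is not a core subunit, was at -0.31. Atpif1, the inhibitor of the synthase, is not a member under this symbol and had 4.73, 5.29 and 3.61 CPM in EC-KO and 3.22, 3.97 and 4.20 CPM in FL, with overlapping groups (0.26, adjusted p = 0.468). Usmg5, which RefSeq also lists as Atp5md, averaged 13.0 CPM in EC-KO and 11.2 CPM in FL (0.21). Of 5 assembly factors of complex V 0 rose and 0 fell (median -0.55), with Tmem242, the most abundant per length, at 0.22. The other 4 were below 0, with Atpaf1 at -0.60, Fam173b at -0.57, Tmem70 at -0.55 and Atpaf2 at -0.066. The carriers Slc25a3, Slc25a4 and Slc25a5, which bring phosphate and ADP to the synthase, were at 0.36, 0.017 and -0.014 and were not called.

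Between complexes II and III electrons are carried by coenzyme Q, and between III and IV by cytochrome c. Of 14 tested genes of these carriers, 3 rose and 2 fell (median -0.04), beside 13.5% of all genes in each direction. Coq8b, an atypical kinase of coenzyme Q synthesis, had 23.7, 40.2 and 20.5 CPM in EC-KO and 9.47, 8.61 and 9.16 CPM in FL (1.63 ± 0.26 SE, adjusted p = 0.00306 in edgeR). Every EC-KO library lay more than 2-fold above every FL library. Its relative Coq8a had 71.2, 24.999 and 73.9 CPM in EC-KO and 25.9, 23.7 and 19.1 CPM in FL (1.31, adjusted p = 0.0279), so EC-KO 2 lay within the FL range, and it was not called without EC-KO 1, EC-KO 3, FL 1, FL 2 or FL 3 (adjusted p = 0.102, 0.0817, 0.0569, 0.0821 and 0.108), and also without the filter on low counts (0.0889) and with limma-voom (0.0532). Pdss1, which makes the side chain, rose (0.98, adjusted p = 0.0106) and was lost without FL 2 (adjusted p = 0.0528). Coq9, a lipid-binding protein of the pathway, had 7.07, 8.62 and 7.60 CPM in EC-KO and 13.9, 14.7 and 14.7 CPM in FL and fell (-0.90, adjusted p = 0.00759). Coq3, a methyltransferase of the pathway, fell as well (-0.95, adjusted p = 0.0494) but was lost without EC-KO 1, EC-KO 2, EC-KO 3, FL 1, FL 2 or FL 3 (adjusted p = 0.0728, 0.0758, 0.104, 0.130, 0.0581 and 0.110), and also without scaling factors (0.0791), with the filter of 1 CPM (0.0513), with the fit that was not robust (0.0501) and with limma-voom (0.0540). Cytochrome c (Cycs) was at 0.047 (adjusted p = 0.868). Among 37 subunits of complex I, 0 were called in either direction by edgeR's quasi-likelihood test (median 0.04, 2 at an unadjusted p under 0.05). Of 8 regulators of respiratory genes, Ppargc1a, a coactivator of mitochondrial biogenesis, and Gabpb1, a subunit of GABP, rose, and Ppargc1b, a relative of Ppargc1a, fell. These 3 calls of 8 stand beside 27.1% of all tested genes called. Ppargc1a had 4.82, 6.86 and 9.64 CPM in EC-KO and 3.29, 0.916 and 2.07 CPM in FL (1.77, adjusted p = 0.0193) and was not called without EC-KO 3 or FL 3 (adjusted p = 0.0611 and 0.0729). Gabpb1 (0.51, adjusted p = 0.0384) was lost without EC-KO 1, EC-KO 3, FL 1, FL 2 or FL 3 (adjusted p = 0.119, 0.0753, 0.0535, 0.168 and 0.139), and also without the filter on low counts (0.0782). Ppargc1b (-1.35, adjusted p = 0.0470) was lost without EC-KO 1, EC-KO 2, EC-KO 3, FL 1 or FL 2 (adjusted p = 0.0837, 0.0766, 0.0873, 0.138 and 0.106), and also without scaling factors (0.0648) and with limma-voom (0.0656).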

How the data were processed

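Raw counts per Ensembl gene were deposited by the authors as 1 table with 1 column per library, in the layout of featureCounts per the file headers, and a second deposited file holds counts of alignments per class. Per the submitters' processing notes, STAR 2.7.10b, featureCounts 2.0.3 and mm10 were used. Strand, annotation release and filters were not stated. The deposited gene coordinates do not match mm10 (GRCm38), so the build was not resolved. For example, Sdha was deposited at 74470373 to 74498399 of chromosome 13, but the window before its start in GRCm38.p6 is 74350241 to 74350490. The table's own gene length, deposited by the authors in bases of all annotated exons, retained introns included, was used for levels per kilobase, which understates short subunits with long annotations such as Atp5l (6443 bases). Multi-mapping alignments (9.10% to 11.5%) had been set aside, so subunits with processed pseudogenes are uncertain. The table had 2 further columns matching no sample, which were not used.

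Symbols came from GENCODE M21 by identifier, and 4993 identifiers had none. In that release Usmg5 and Atpif1 carry names outside the rule. Counts were analysed with edgeR 4.0.16 in R 4.3.3 (filterByExpr, TMM, robust quasi-likelihood test, EC-KO over FL, no covariates, two-sided, Benjamini-Hochberg over all genes tested). SEs are the size of the log2 fold change over the root of F, and intervals use it with the t quantile of the fit. The common biological coefficient of variation was 25.5%. Alternatives used DESeq2 1.42.0, limma 3.58.1, other scalings and filters, and left out libraries. Only the edgeR fit was tested on simulated counts with known fold changes, without a difference in cell mix.

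Members and lists were chosen with earlier results of these data known. Named by rule were called members, isoform pairs, the most abundant and the extreme members of each complex, from each list at most 3 called genes each way, lowest p first, or else its most abundant gene, and Fundc1. Other genes given with values were chosen after these were seen. The result of 1 gene named by the rule is not reported here. Further marker lists, of lymphocytes (1 of 6 called higher and 1 lower, median -0.03) and of erythroid cells and platelets (5 of 8 higher, 0 lower, median 1.80), were measured too. Of all tested genes 13.5% were called in each direction.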

Additional observations from a re-analysis of the deposited data

How the results depend on the processing

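All 4 member calls kept their direction under all 16 alternatives. The count of called members (4) was 4 with RLE scaling, library sizes without genes of the mitochondrial genome, a filter of 1 CPM in 3 libraries, a fit that was not robust and limma-voom, 4 without scaling factors (Atp5mpl in place of Atp5c1), 5 with DESeq2 and 3 without the filter. It was 1 to 7 when 1 library was left out, beside 2547 to 6740 genes called among all (5029 in the fit described), and 7 of 7554 without FL 1 and EC-KO 2, an alternative chosen after seeing the data, where Taco1 (adjusted p = 0.105), Coq3 (0.166) and Ppargc1b (0.187) were not called. The median log2 fold change of the members was -0.01 to 0.18 when 1 library was left out and 0.03 to 0.16 otherwise. Library size alone moved the median of all genes to 0.12 and the share of higher among called genes to 57.5%, against 50% with TMM. Same-numbered libraries did not deviate together (correlations 0.11, -0.04 and -0.29; only EC-KO 1 correlated best with its own number), so the replicate block is given only here: 3 members and 3848 genes were called, and Atp5c1 (adjusted p = 0.102) was not, nor were Ogdh (0.0647), Coa7 (0.0630), Coa5 (0.0589), Cox15 (0.0824), Taco1 (0.0690), Coq3 (0.0599), Gabpb1 (0.0844) and Ppargc1b (0.0681). From counts not divided by length, the Cox4i2 share differed by -3.23 percentage points (-5.72 per kb), that of Cox6a2 by 3.84 (3.96), Cox7a1 by 1.95 (3.26) and Cox8b by 0.79 (1.35). With 1 library left out, the isoform shares differed by -7.22 to -4.68 (Cox4i2), 3.17 to 4.90 (Cox6a2), 1.89 to 4.20 (Cox7a1) and 0.78 to 1.87 (Cox8b) points.

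Of the single-gene values over all alternatives, 920 kept direction and side of the threshold, 86 lost a call, 10 gained one and 55 changed sign, none of these 55 called. With library size alone these were Sdhb 0.049, Atp5a1 0.021, Atp5f1 0.022, Atp5g1 0.077, Atp5h 0.020, Slc25a5 0.070. They were Atp5o -0.014, Uqcc3 -0.011 without mitochondrial genes in library sizes, Atp5o -0.014, Uqcc3 -0.0087 without the filter, Atp5g1 0.019, Slc25a5 0.012 with the 1 CPM filter, Uqcc3 -0.012 with the replicate block and Uqcc3 -0.0059 with limma-voom. Without FL 1 and EC-KO 2 they were Uqcrb -0.015, Cox6a1 -0.17, Cox6b1 -0.064, Cox7a2 -0.040, Cox7c 0.021, Cox8a -0.032, Atp5j -0.037, Atp5o -0.18, Atpif1 -0.0021. With 1 library left out, the ranges were Cox5b (-0.13 to 0.14), Cox6b1 (-0.11 to 0.17), Cox7b (-0.037 to 0.16), Uqcc3 (-0.27 to 0.17), Uqcrb (-0.094 to 0.20), Cox5a (-0.019 to 0.28), Cox6a1 (-0.18 to 0.24), Cox7a2 (-0.0061 to 0.38), Cox8a (-0.067 to 0.18), Atp5j (-0.037 to 0.13), Atp5o (-0.17 to 0.14), Sdhb (-0.15 to 0.053), Uqcr11 (-0.35 to 0.11), Atp5f1 (-0.23 to 0.053), Atp5g1 (-0.081 to 0.013), Atp5h (-0.17 to 0.031), Slc25a5 (-0.094 to 0.053), Cox7c (-0.26 to 0.024), Atp5k (-0.0055 to 0.27). Cox7a1 and Cox8b had 9 to 33 and 2 to 19 counts per library. The cause of these changes was not tested.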
